A study of Mus musculus with 20 samples.

Results

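Old mouse ventricles with few or no atrial transcripts were compared with young ventricles, gene by gene. The old arrays were selected on the signal of the atrial gene Myl7: 3 of 10 had a log2 value of 10 or lower and were set against all 10 young arrays, so that 13 of the 20 arrays of the series entered the comparison. Every array held ventricular RNA of 1 male C57BL/6J mouse, an inbred laboratory strain, aged 25 to 28 months in the old group and 4 to 6 months in the young group. All mice were untreated as far as the labels say, and were group-housed in one barrier facility. The arrays were Affymetrix MOE430 2.0 chips, which read a transcript with sets of short probes, and the signals are GCRMA values on a log2 scale, where a difference of 1 is a factor of 2. Because whole tissue was homogenised, fewer cells of a type and less RNA per cell cannot be told apart in any value below.

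Atrial and ventricular heart muscle use different versions of the same contractile proteins. Atrial myocytes make the myosin light chains Myl7 and Myl4, the calcium pump inhibitor sarcolipin (Sln) and the hormone precursor Nppa, while adult ventricular myocytes make Myl2 and Myl3. In the adult mouse ventricle the main heavy chain is the fast α-myosin Myh6, and the slow β-myosin Myh7 is the fetal form that reappears under load and with age.

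Myl7 was at 2.36, 8.27 and 6.58 in old replicates 1, 2 and 7, and between 2.38 and 2.44 in the young arrays (median 2.41). In the other 7 old arrays it lay between 12.13 and 14.55 (median 14.26). Old replicate 2, at 8.27, was thus the array just inside the limit and old replicate 3, at 12.13, the one just outside. These values chose the arrays and are a description, as are those of the other atrial genes.

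Sln, Myl4 and Dkk3 had the same order over the 3 arrays as Myl7. Most other atrial genes were at or near the young level, and Myh7b was below it. Sln was at 2.11, 6.97 and 5.01 in the 3 old arrays, between 2.00 and 2.32 in young and at 9.91 or more in the other old arrays. Myl4 was at 4.04, 9.01 and 5.94, against 4.03 to 5.16 in young and 11.94 to 14.58 in the other old arrays. Old replicate 1 was inside or next to the young range for all 3 genes, while old replicates 2 and 7 held a low level of each. Dkk3, a secreted protein, was at 3.28, 6.33 and 4.89 against 2.70 to 3.25 in young. Nppa was at 10.63, 12.38 and 11.01, and young arrays covered 9.88 to 12.37, so only replicate 2 stood at the young upper edge. Stard10, the transcription factor gene Tbx5, the atrial growth factor gene Bmp10 and the fibroblast growth factor gene Fgf12 lay within or at most 0.01 below the young range in all 3 arrays. Myh7b was at 5.76, 5.43 and 5.96, below the young range of 6.08 to 7.63. Single arrays stood just above the young range for Clu (replicate 1, 14.23 against at most 14.18) and Tbx18 (replicate 2, 4.60 against 4.54). Replicate 7 did so for Nr2f2 (6.21 against 6.06) and Rgs6 (4.27 against 4.25). Of the 24 atrial genes listed, 20 had a probe set and 12 passed the filter on dim signals (log2 above 4 in at least 10 of the 20 arrays). Their mean log2 signal over the 20 genes was 5.40, 6.36 and 5.98 in the 3 old arrays, 5.26 to 5.55 in young and 7.17 to 9.20 in the other old arrays.

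The ventricular genes Myl2, Myl3 and Myh6 were at the young level, while Myh7 and Kcnip2 of the same list, given below, were not. Myl2 was at 15.09, 15.11 and 15.19 against 15.04 to 15.33 in young, Myl3 at 15.53, 15.51 and 15.56 against 15.45 to 15.60, and Myh6 at 15.93, 15.89 and 15.98 against 15.76 to 16.01. The 3 arrays lay inside the young range for each of these genes. These probe sets read near the top of the scale, where signals approach saturation and differences are compressed.

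**Figure D1:**
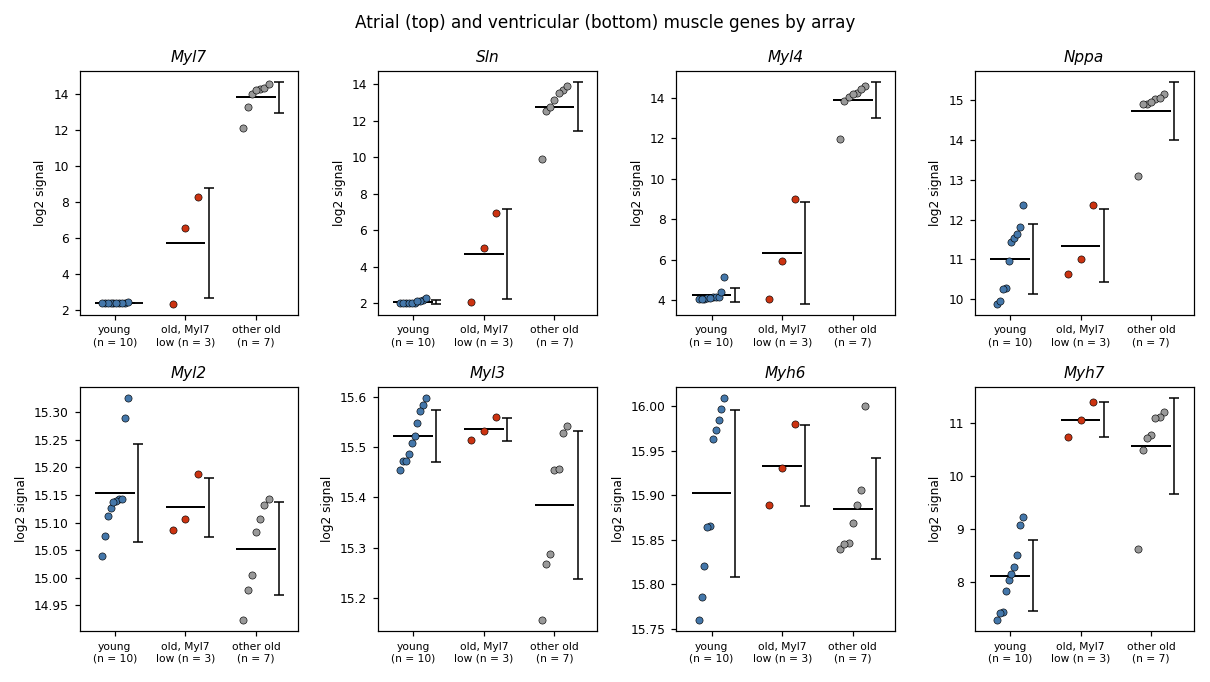
Log2 signal (vertical axes, 1 panel per gene) of 4 atrial genes (top) and 4 ventricular genes (bottom) in young arrays, old arrays with Myl7 at 10 or lower and the other old arrays. Each point is 1 array, ordered by value within its group, the line is the mean and the bar to its right the SD. The 3 old arrays lie below every other old array for Myl7, Sln, Myl4 and Nppa, and above every young array for Myh7.

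Against the 10 young arrays, 272 of 9275 genes tested changed (limma, Benjamini-Hochberg adjusted p under 0.05), which is 2.93% of the genes. Of these, 209 were higher in old (2.25% of the genes tested) and 63 lower (0.679%). Rises were also the larger changes, with 123 rises and 11 falls beyond 1 on the log2 scale. The median difference over all genes was 0.018. At an unadjusted p under 0.05 the count was 1519. When all 10 old arrays were compared with the young ones, 1732 genes changed (18.7%; 1037 higher, or 11.2%, and 695 lower, or 7.49%). Of those 1732, 252 (14.5%) changed in the 3 arrays too, 202 of them upward and 50 downward, and these are 92.6% of the 272. Both comparisons share the young arrays and the 3 old ones, and the smaller one has less power, so a gene missing from it is not thereby unchanged.

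The count of 272 leaned on single arrays. Without old replicate 1 it was 107, without old replicate 2 it was 76 and without old replicate 7 it was 293. The arrays also fell into 5 sets of 4 by their shared deviations from the age means, sets that the labels do not name, and old replicates 1 and 2 belonged to 1 set and replicate 7 to another. Against only the 4 young arrays of those 2 sets, 45 genes were called (39 higher, 6 lower), 40 of them among the 272. With the set as a block the count was 451 (287 higher, 164 lower), 197 of them among the 272. The sets were formed from the residuals of these same values. The block therefore takes out spread in part by construction, and the larger count is no added support. Of the 272, 61 kept their call in each of the 13 fits that left out 1 array, 58 of them rises.

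The slow myosin gene Myh7 rose in old hearts that had little atrial RNA. It was at 11.05, 10.74 and 11.40 in the 3 old arrays and between 7.28 and 9.22 in young (median 8.09), with no overlap. The difference was 2.95 ± 0.36 (SE), a factor of 7.71 (adjusted p = 0.000257), and old replicate 1, with Myl7 at the young level, was as high as the others. Within the 2 array sets the difference was 2.57 and 3.18. Among the other 7 old arrays Myh7 ranged from 8.61 to 11.21 (median 10.78), so 1 of them lay inside the young range. Old replicates 1 and 2 lay within the range of these 7 arrays and replicate 7 above it.

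Of the other contractile genes associated with fetal or stressed heart, Myot changed and most did not. Myotilin (Myot), which crosslinks actin at the Z-disc, was at 11.98, 11.97 and 11.63 against 10.20 to 11.10 in young (difference 1.25 ± 0.19, SE; adjusted p = 0.00155). All 3 old arrays were above all young ones. In the other old arrays Myot ran from 9.66 to 12.17, across the young range. Of 12 tested genes of this list, 2 rose and 0 fell (Myh7 and Myot), with a median of 0.29, beside 2.25% higher, 0.679% lower and a median of 0.018 over all genes. The natriuretic peptide gene Nppb was at 13.01, 13.03 and 12.62 against 11.69 to 13.02 in young (difference 0.26, adjusted p = 0.62), and skeletal actin Acta1 was at 10.61, 11.66 and 11.89 against 11.19 to 13.19 (difference −0.52, adjusted p = 0.518). Both overlapped with young.

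Of the 15 tested genes of the ion channel list, 0 rose and 1 fell, Kcnip2, beside 2.25% higher and 0.679% lower of all genes. Kcnk1, a background potassium channel that is not in this list, rose. It was at 6.49, 5.84 and 6.92 against 3.0 to 3.35 in young, a difference of 3.31 ± 0.17 (SE, adjusted p = 3.74e-08). Kcnk1 was under 4 in every young array and passed the filter through old arrays only (adjusted p = 8.5e-07 with no filter). The groups did not overlap, and the other old arrays, at 4.04 to 6.21, were above young and reached into the range of the 3. Kcnip2 is an accessory subunit of the channels for the fast transient outward potassium current in ventricular myocytes. It was at 8.35, 8.48 and 8.62 against 8.84 to 9.72 (difference −0.87 ± 0.17, SE, adjusted p = 0.0104), below every young array. It was also lower within both array sets, by −0.53 and −0.72, but its call ended without old replicate 1 and without replicate 2. Of 13 tested ventricular genes, 1 rose (Myh7) and 1 fell (Kcnip2), and the median was 0.01. Npr3, the clearance receptor for natriuretic peptides, was at 8.24, 7.86 and 7.57 against 5.24 to 6.45 (difference 1.97 ± 0.26, SE; adjusted p = 0.0005). Grk5, a kinase that desensitises β-adrenergic receptors, rose by 0.94 (adjusted p = 0.00675), a call that ended without old replicate 2. These were the 2 called genes of 12 in the adrenergic, angiotensin and endothelin list.

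Platelet genes were higher than in young in each of the 3 arrays. Platelets are cell fragments shed by megakaryocytes, and their transcripts reach heart tissue with blood. Clec1b, the platelet receptor for podoplanin, Gp1bb, a chain of the von Willebrand factor receptor, and Ppbp and Pf4, chemokines stored in platelet granules, are lineage genes of this kind. Their promoters are shown for the genes with the most and the fewest letters of the GATA core, since GATA factors drive this lineage. Each line is the 250 bases before the RefSeq start on the gene's own strand (build GRCm38.p6), chr6:129397047-129397296 on the + strand for Clec1b and chr16:18622404-18622653 on the − strand for Gp1bb. Capitals mark GATAA, read on both strands as GATAA or TTATC.
Clec1b: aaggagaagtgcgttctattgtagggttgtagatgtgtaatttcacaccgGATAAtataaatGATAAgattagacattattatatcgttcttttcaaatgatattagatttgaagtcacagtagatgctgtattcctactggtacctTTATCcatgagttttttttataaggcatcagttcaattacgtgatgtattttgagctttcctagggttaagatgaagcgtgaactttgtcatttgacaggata
Gp1bb: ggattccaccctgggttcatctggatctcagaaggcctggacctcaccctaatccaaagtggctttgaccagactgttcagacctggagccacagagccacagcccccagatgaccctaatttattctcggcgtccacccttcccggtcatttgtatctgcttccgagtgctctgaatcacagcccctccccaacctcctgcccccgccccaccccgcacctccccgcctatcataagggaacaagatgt
The Clec1b window held 3 matches and the Gp1bb window 0, as did those of Pf4 and Ppbp. Of 32851 windows of the same kind, 22.6% held at least 1 match and 4.28% at least 2. A match describes letters and not a bound site, and no other motif was searched in these windows.

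Clec1b was at 7.30, 7.05 and 6.92 in the 3 old arrays and between 2.45 and 3.98 in young (median 3.16). The difference was 3.93 ± 0.23 (SE), a factor of 15.2 (adjusted p = 1.27e-07). Ppbp was at 9.17, 8.80 and 8.62 against 4.04 to 6.94 (3.56 ± 0.42, SE; adjusted p = 0.000193). Neither gene overlapped between the groups. Gp1bb was at 7.93, 6.42 and 6.25 against 3.02 to 4.29 (3.23 ± 0.30, SE; adjusted p = 2.18e-05), again without overlap. The lipoxygenase gene Alox12 (1.92), the platelet tubulin gene Tubb1 (1.77) and Pf4 (1.33) rose as well, with all 3 old arrays above all young ones. The call of Tubb1 ended without old replicate 1 and without replicate 2.

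Of 18 platelet genes listed, 16 had a probe set and 6 passed the filter, and 6 of these 6 rose, beside 2.25% of all genes. Clec1b was under 4 in every young array and so passed only because it was high in old. Gp1bb, with a young median of 3.56, passed mostly through old arrays as well. With no filter, 10 of the 16 rose and 0 fell, with a median of 1.15. Over the 16 genes the mean log2 signal was 4.91, 4.69 and 4.69 in the 3 old arrays, 3.24 to 3.70 in young and 3.88 to 7.32 in the other old arrays. The red cell genes, another reading of blood in the tissue, averaged 7.77, 6.51 and 6.51 against 6.00 to 6.50 in young. By this mean the red cell genes were raised in old replicate 1 and at the young upper edge in replicates 2 and 7. By the sum of their signals on the linear scale, all 3 old arrays lay above every young array. All 5 tested red cell genes had estimates above 0. Their median difference from young was 1.92, 0.51 and 0.47 in replicates 1, 2 and 7. That of the 6 tested platelet genes was 3.08, 2.26 and 2.26. The part of blood content in the platelet values was not tested.

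Of 28 tested macrophage genes 15 rose and 0 fell, or 53.6% beside the 2.25% of all genes that rose, with a median of 0.91. All 35 genes listed had a probe set, and with no filter 8 of the 35 rose and 0 fell, with a median of 0.80. The median was 1.36 in old replicate 1, 0.97 in replicate 2 and 0.46 in replicate 7. Vsig4, a complement receptor of resident macrophages, was at 6.77, 5.59 and 4.07 against 2.39 to 3.16 in young (2.85 ± 0.36, SE; adjusted p = 0.00033). Lgals3, a galectin of activated macrophages, was at 7.85, 7.16 and 6.73 against 3.55 to 5.64 (2.85 ± 0.37, SE; adjusted p = 0.000408). Both genes had all 3 old arrays above all young ones. Ccr2, the receptor of monocytes that enter tissue, was at 5.91, 4.44 and 5.19 against 3.40 to 3.95 (1.62 ± 0.21, SE; adjusted p = 0.000395), also without overlap. Vsig4 and Ccr2 were under 4 in every young array and passed the filter through old arrays only, so their place in the count supports nothing; with no filter they were called too (adjusted p = 0.00322 and 0.00268). F13a1, a transglutaminase of resident macrophages and platelets, was at 9.85, 9.62 and 9.44 against 8.24 to 8.92 (1.11 ± 0.14, SE; adjusted p = 0.00033). F13a1, Lgals3, Ccl8 and Ppbp kept their calls in each other setting that tested them.

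Smaller rises of this list were those of Lyve1, a hyaluronan receptor (1.23), Cd68, a lysosomal glycoprotein (1.18), the mannose receptor gene Mrc1 (0.80) and the lysozyme genes Lyz1 (0.91) and Lyz2 (0.74). The leukocyte surface genes Cd52 (1.25) and Cd53 (1.19), the lysosomal membrane gene Laptm5 (0.98) and Fcer1g, the signalling chain of Fc receptors (0.90), rose too, and Ccl6 and Ccl9 are given with the chemokines. Lyz1 and Lyz2 are close copies, so their probe sets may share signal. Without old replicate 1 or without replicate 2 the count fell from 15 to 5, and the calls of Lyve1, Cd68, Mrc1, Lyz1, Lyz2, Cd52, Cd53, Laptm5 and Fcer1g ended in both cases. The median was 0.68 without replicate 1 and 0.86 against the young arrays of the same sets, where 2 genes were called. Over all 35 genes the mean log2 signal was 7.12, 6.80 and 6.31 in the 3 old arrays, 5.55 to 6.30 in young and 6.42 to 7.32 in the other old arrays. Replicate 7 thus stood at the young upper edge for the list as a whole.

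Chemokines, the signals that draw leukocytes into tissue, moved both ways. Of 25 listed, 12 were tested, 7 rose and 1 fell, with a median of 0.82. These are 58.3% and 8.33% of the tested genes, beside 2.25% and 0.679% of all genes. With no filter 7 of 23 rose, 1 fell and the median was 0.21. Ccl8, a monocyte chemokine, was at 7.59, 7.12 and 6.10 against 2.86 to 4.50 in young (3.67 ± 0.33, SE; adjusted p = 2.18e-05), and in the other old arrays at 6.15 to 7.52. The 3 old arrays and the other 7 covered about the same range for Ccl8, and none reached the young ones. Cxcl13, which attracts B cells, was at 9.85, 5.96 and 4.52 against 2.63 to 3.15 (3.88 ± 0.68, SE; adjusted p = 0.0057). It was far higher in replicate 1 than in the other two. Cxcl13 passed the filter through old arrays only, with every young array under 4 (adjusted p = 0.0289 with no filter). Ccl6 rose by 1.73, Cxcl14 by 1.34, Ccl9 by 1.09, the stromal homing signal Cxcl12 by 0.74 and the eosinophil chemokine Ccl11 by 0.70. The calls of Cxcl14, Ccl9, Cxcl12 and Ccl11 ended without old replicate 1 and without replicate 2, which left 3 rises in each fit.

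Cxcl9, a chemokine induced by interferon gamma, fell. It was at 4.11, 4.71 and 3.62 against 5.24 to 6.76 in young (−1.85 ± 0.33, SE; adjusted p = 0.0062), with every old array below every young one. It was lower by −1.95 and −1.93 within the 2 sets, and the other old arrays were at 3.02 to 4.79. The other interferon-induced genes did not share this fall, since of 19 tested 0 rose and 0 fell with a median of 0.18 (1 rise at most in any other setting). Rsad2 was at 10.60 in old replicate 1 and at 8.55 and 8.05 in replicates 2 and 7, against 7.68 to 8.32 in young (adjusted p = 0.123). Of 12 genes for MHC class II and antigen presentation, none was called, with a median of 0.09.

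Among complement genes 3 of 12 tested rose and 0 fell, or 25.0% beside the 2.25% of all genes that rose, with a median of 0.45. They were C1qb, a chain of the recognition molecule (0.73), C1s1, its protease (0.67), and Serping1, the inhibitor of that protease (0.50). C1s1 was at 7.74, 8.15 and 7.97 against 7.0 to 7.51 in young (adjusted p = 0.00785). The calls of C1qb and Serping1 ended without old replicate 1, those of all 3 without replicate 2, and 1 and 0 of the list were left in these fits. Serpina3n, an acute-phase protease inhibitor that is no member of these lists, was at 7.12, 6.97 and 6.26 against 3.36 to 4.62 (2.93 ± 0.25, SE; adjusted p = 1.65e-05). It kept its call in each other setting that tested it. The immunoglobulin heavy chain gene Ighm was at 7.67, 7.53 and 7.45 against 5.17 to 6.72 (1.42 ± 0.23, SE; adjusted p = 0.00307), 1 of the 2 tested genes of the B and T cell list. The other 18 matched genes of that list did not pass the filter, and with no filter its median was −0.03. Lcn2, a neutrophil granule protein also made by other stressed cells, rose by 1.99 (adjusted p = 0.00402), and it too passed the filter through old arrays only (adjusted p = 0.0202 with no filter). The called members of the red cell and adipocyte lists were Bpgm, a red cell enzyme (1.08, a call that ended without old replicates 1 or 2), and Car3, a carbonic anhydrase of fat and skeletal muscle. Car3 was at 7.73, 9.14 and 6.41 against 2.90 to 6.97 in young (4.20 ± 0.72, SE; adjusted p = 0.00497). It was the largest rise, yet old replicate 7 lay below the highest young array, and its call ended without old replicate 2. The other 7 tested adipocyte genes were not called, and the list's median was 0.06.

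**Figure D2:**
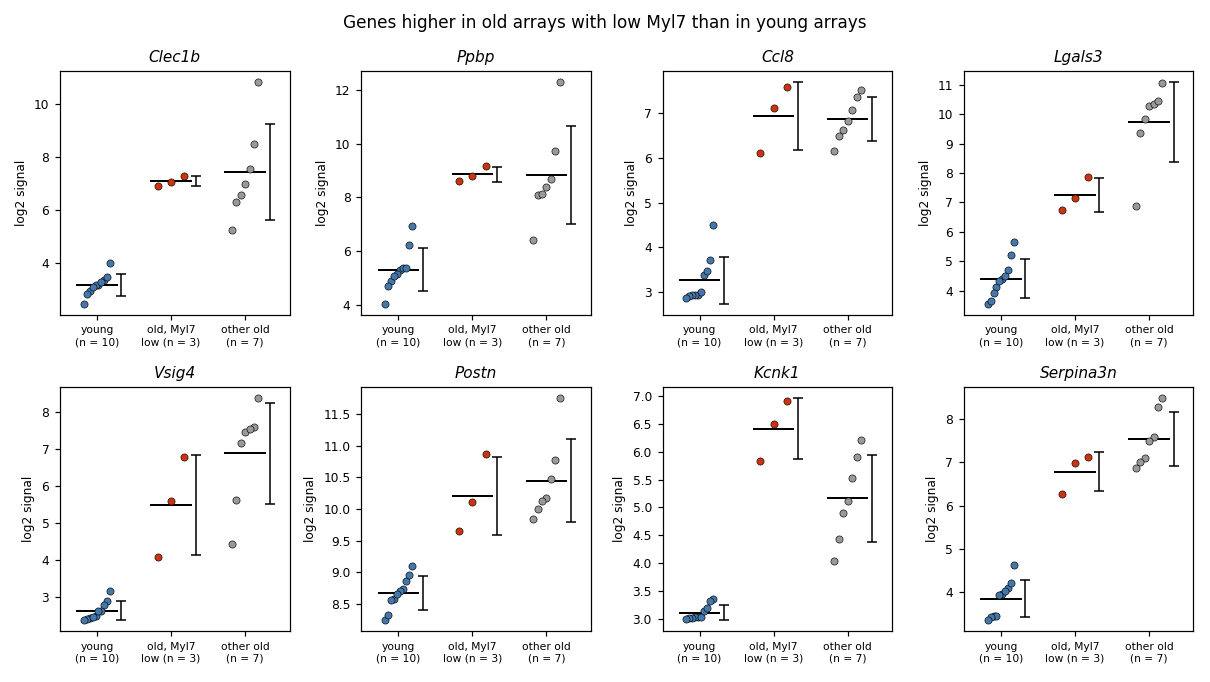
Log2 signal (vertical axes) of 8 genes that were higher in the 3 old arrays with low Myl7 than in the 10 young ones, with the other 7 old arrays beside them. Points are arrays, lines means and bars SDs; in each panel all 3 old arrays lie above all young arrays, as for Clec1b at 6.92 to 7.30 against 2.45 to 3.98.

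Of 36 tested genes of the extracellular matrix 9 rose and 1 fell, or 25.0% and 2.78% beside 2.25% and 0.679% of all genes, with a median of 0.43. The filter favours rises in this count. Comp, given below, was under 4 in every young array and passed through old arrays only. Fmod and Thbs1, with young medians of 3.59 and 3.76, passed mostly through old arrays. Periostin (Postn), a matrix protein of activated fibroblasts and valves, was at 9.64, 10.86 and 10.11 against 8.24 to 9.10 in young (1.53 ± 0.22, SE; adjusted p = 0.000875). Thrombospondin 1 (Thbs1), a platelet and stromal protein, was at 5.87, 5.71 and 6.69 against 2.95 to 4.37 (2.41 ± 0.28, SE; adjusted p = 0.000164). The protease Mmp3 was at 7.72, 8.40 and 6.29 against 4.13 to 5.79 (2.49 ± 0.37, SE; adjusted p = 0.00139). None of these overlapped with young. Fibronectin (Fn1) rose by 0.96, the fibulin gene Efemp1 by 1.25 and the protease inhibitor Timp3 by 0.59, and Ccn1, an early growth response gene of the matrix, fell by 0.89. The call of Fn1 held without any 1 array. Those of Efemp1 and Ccn1 ended without any of the 3 old arrays, and that of Timp3 without old replicates 2 or 7.

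The valve and cartilage list shares Cilp, Comp and Fmod with the matrix list. Cilp, a cartilage matrix protein, was at 7.17, 7.91 and 7.06 against 4.66 to 6.09 in young (2.07 ± 0.24, SE; adjusted p = 0.000193). Comp was at 4.07, 6.95 and 5.44 against 3.0 to 3.75 (2.06 ± 0.38, SE; adjusted p = 0.00785), and Fmod, fibromodulin, at 4.21, 8.23 and 6.71 against 3.46 to 4.21 (2.73 ± 0.51, SE; adjusted p = 0.00888). Cilp was raised in all 3 arrays, whereas Fmod and Comp were low in old replicate 1 and highest in replicate 2. Comp passed the filter through old arrays only, with every young array under 4 (adjusted p = 0.0339 with no filter). The calls of Comp and Fmod ended with the array set as a block and against only the young arrays of the same sets. The Wnt inhibitor genes Frzb (1.15) and Wif1 (1.42) and the secreted cartilage protein gene Cytl1 (1.72) rose too. Of 12 tested genes of the list, 6 rose (50.0%, beside 2.25% of all genes) and 0 fell, with a median of 1.27. Of all 21 with no filter, 5 rose and 0 fell, with a median of 0.30. Myl7 and the genes Fmod and Comp had the same order over the 3 arrays, replicate 2 above 7 above 1, a description of 3 points. Over the 21 genes the mean log2 signal was 4.50, 5.33 and 4.75 against 4.09 to 4.35 in young and 4.70 to 5.44 in the other old arrays. With replicate 1 as the one old array, 1 gene of the list was called and the median was 0.64. Without replicate 2 the rises were 3, with the calls of Fmod, Wif1 and Cytl1 ended, and the call of Cytl1 ended without replicate 1 as well.

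Fibrillar collagens did not rise as a block, and fibroblast markers were mostly above the young mean with few calls. Of 16 tested fibroblast genes 3 rose (18.8%, beside 2.25% of all genes) and 0 fell. Of their estimates 15 were above 0, with a median of 0.39. Over the 18 genes with a probe set the mean log2 signal was 7.85, 8.49 and 8.13 against 7.58 to 7.93 in young. Replicates 2 and 7 were thus above every young array. Meox1, a transcription factor of activated fibroblasts, was at 5.58, 5.91 and 5.75 against 4.32 to 4.75 in young (1.12 ± 0.12, SE; adjusted p = 5.61e-05), with no overlap and a call that held without any 1 array. The other rises were those of Wif1 and Fstl1, a follistatin-like secreted protein (0.68), whose call ended without old replicates 2 or 7. Without replicate 2, 1 rise was left. Of 17 collagens, 2 rose (11.8%) and 0 fell, with a median of −0.05. They were Col14a1 (1.01) and Col8a1 (0.94), and both calls ended without old replicate 1 and without replicate 2. Col1a1, the main chain of type I collagen, was at 6.21, 7.31 and 7.72 against 6.45 to 7.90 (difference 0.02, adjusted p = 0.983), and Col3a1 at 10.03, 11.28 and 10.92 against 10.73 to 11.52 (−0.38, adjusted p = 0.386). Old replicate 1 was below the young range for both. Its median over the collagens was −0.71, against 0.14 in replicate 2 and 0.03 in replicate 7.

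Of 31 tested genes for TGF-β, BMP and IGF signalling, 4 rose and 0 fell, or 12.9% beside the 2.25% of all genes that rose, with a median of 0.37. Id2, a BMP target, was at 8.44, 8.50 and 7.59 against 5.92 to 7.28 in young (1.48 ± 0.26, SE; adjusted p = 0.00675). The inhibitor Smad6 rose by 0.87, the receptor Tgfbr2 by 0.68 and the ligand Tgfb2 by 0.65. All 4 genes were above all young arrays in the 3 old ones. All 4 calls ended without old replicate 1, and without replicate 2 only that of Smad6 was left. Of 23 endothelial genes, 3 rose and 1 fell, with a median of 0.06. Von Willebrand factor (Vwf), which endothelium secretes and platelets store, was at 9.86, 8.58 and 8.86 against 6.57 to 8.51 (1.66 ± 0.35, SE; adjusted p = 0.0184). The water channel gene Aqp1 fell, at 8.89, 9.93 and 10.63 against 10.39 to 11.34 (−1.22 ± 0.27, SE; adjusted p = 0.0229), with old replicate 7 inside the young range. The other rises were those of Npr3, given above, and the transcription factor Sox17 (0.83). The call of Vwf ended without old replicate 1, and those of Aqp1 and Sox17 without replicate 1 and without replicate 2, which left 1 and 2 rises. Single called genes of other lists were the clock repressor Bhlhe40 (0.89, 1 of 16), the mitophagy receptor gene Bnip3 (0.79, 1 of 26 of the lysosome and autophagy list) and sorcin (Sri), a calcium-binding protein (0.57, 1 of 19 for calcium handling). All 3 calls ended without old replicate 1 and without replicate 2. In the epicardial and mesothelial list, 2 of 6 tested genes rose (Gpm6a and Efemp1), and with no filter 1 of 17.

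**Figure D3:**
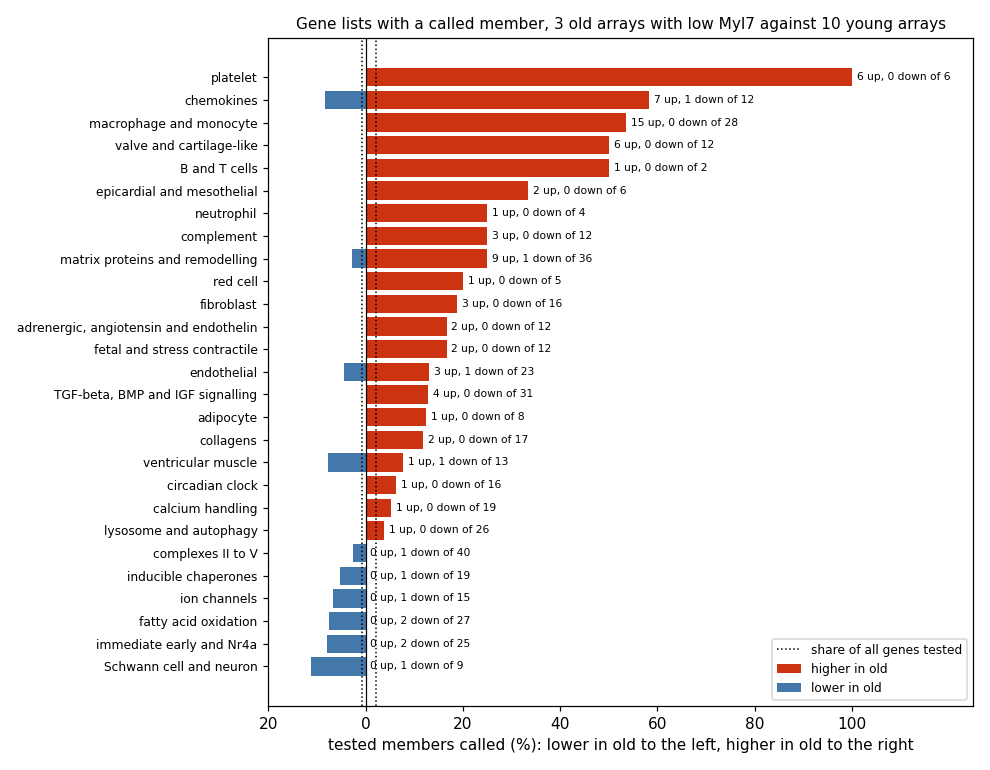
Share of tested members of each gene list (horizontal axis, percent) called higher (right) or lower (left) in the 3 old arrays with low Myl7 than in the 10 young ones, for lists with at least 1 called member. Dotted lines give the share of all genes tested, 2.25% higher and 0.679% lower; lists with few tested members, such as platelet with 6, have coarse shares.

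The falls were fewer and were led by Nr4a1, a nuclear receptor of the immediate early class that is switched on within minutes by stress, adrenergic or calcium signals. Its promoter is shown with that of Atf3, a stress-induced transcription factor that fell too, because both are textbook targets of factors that bind the cyclic AMP response element. Lines are as above, chr15:101266596-101266845 on the + strand and chr1:191183334-191183583 on the − strand of GRCm38.p6, with CGTCA in capitals, read on both strands as CGTCA or TGACG.
Nr4a1: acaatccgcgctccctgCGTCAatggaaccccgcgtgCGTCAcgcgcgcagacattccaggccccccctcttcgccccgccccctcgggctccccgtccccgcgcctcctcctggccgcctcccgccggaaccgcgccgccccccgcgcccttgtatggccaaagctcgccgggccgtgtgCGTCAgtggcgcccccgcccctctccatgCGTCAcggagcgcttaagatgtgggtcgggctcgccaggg
Atf3: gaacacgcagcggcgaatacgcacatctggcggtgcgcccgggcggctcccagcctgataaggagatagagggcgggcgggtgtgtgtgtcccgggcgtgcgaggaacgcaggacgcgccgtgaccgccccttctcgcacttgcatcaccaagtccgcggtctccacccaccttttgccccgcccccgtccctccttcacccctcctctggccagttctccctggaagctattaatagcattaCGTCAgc
The window of Nr4a1 held 4 matches and that of Atf3 held 1. Of the 32851 windows, 17.8% held at least 1 match and 3.90% at least 2, and no other motif was searched in them. The letters say nothing of which factor acted.

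Nr4a1 was at 6.06, 7.06 and 6.44 in the 3 old arrays and at 8.61 to 10.30 in young (median 9.39). The difference was −2.89 ± 0.32 (SE; adjusted p = 0.000131), or 13.5% of the young level, and there was no overlap. In the other old arrays it ran from 6.53 to 9.63, into the young range. Nr4a1 was the 1 falling gene, of the 14 genes in all, whose call held in each of the 25 other settings. Atf3 was at 3.84, 4.10 and 4.00 against 4.54 to 6.06 (−1.34 ± 0.28, SE; adjusted p = 0.0178), without overlap, but its call ended without old replicate 1 and without replicate 2. Nr4a2, a relative of Nr4a1, was at 3.25, 4.19 and 3.69 against 4.03 to 6.56 (−1.65, adjusted p = 0.0663). Of 25 tested immediate early genes 0 rose and 2 fell (Nr4a1 and Atf3), beside 2.25% higher and 0.679% lower of all genes. The median of the list was −0.33, against 0.018 over all genes. The young arrays spread over more than 1 log2 unit for each of these 3 genes.

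The inducible heat shock genes Hspa1b and Hspa1a had the lowest estimates of all genes tested, and neither passed the test. Hspa1b, the inducible form of the chaperone Hsp70, was at 6.79, 6.60 and 6.73 in the 3 old arrays and ran from 6.75 to 13.40 in young (median 10.41). The difference was −3.63 ± 1.15 (SE; adjusted p = 0.119), and the spread was nearly all among the young arrays. Hspa1a was at 3.54, 4.85 and 4.04 against 4.41 to 10.65 (−3.49 ± 1.11, SE; adjusted p = 0.12). The 2 genes are nearly identical copies, so their probe sets cannot be taken as separate readings. Dnajb1 (−1.38, adjusted p = 0.124), Hsph1 (−1.20, adjusted p = 0.169) and Dnaja1 (−1.09, adjusted p = 0.143) were likewise not called. Of 19 inducible chaperones tested 1 fell, Dnajb5 (−0.68, adjusted p = 0.041), or 5.26% beside 0.679% of all genes. For this list 18 estimates were below 0, with a median of −0.60 against 0.018 over all genes. The call of Dnajb5 ended without any 1 of the 3 old arrays.

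Other falls were spread over unrelated functions. Nrn1, a neurite growth factor, was at 4.77, 5.46 and 6.18 against 6.26 to 8.70 in young (−1.94 ± 0.46, SE; adjusted p = 0.0368). Otud1, a deubiquitinase (−1.30), Trp53i11, named for its induction by p53 (−1.29), Dcakd (−1.12), Akap5, a kinase anchor (−1.05), Nrep (−1.05), Tbc1d10c, a lymphocyte GTPase regulator (−1.04), and Pcdh12, an endothelial protocadherin (−0.98), complete the 12 largest. Tbc1d10c was at 5.94, 5.93 and 5.60 against 6.50 to 7.42 (adjusted p = 0.0031). With Nr4a1 and Cxcl9 it was 1 of the 3 falls that held without any 1 array. The calls of Nrn1, Trp53i11, Dcakd, Akap5, Nrep and Pcdh12 ended without old replicate 1 and without replicate 2, and that of Otud1 without replicate 1 and without replicate 7.

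**Figure D4:**
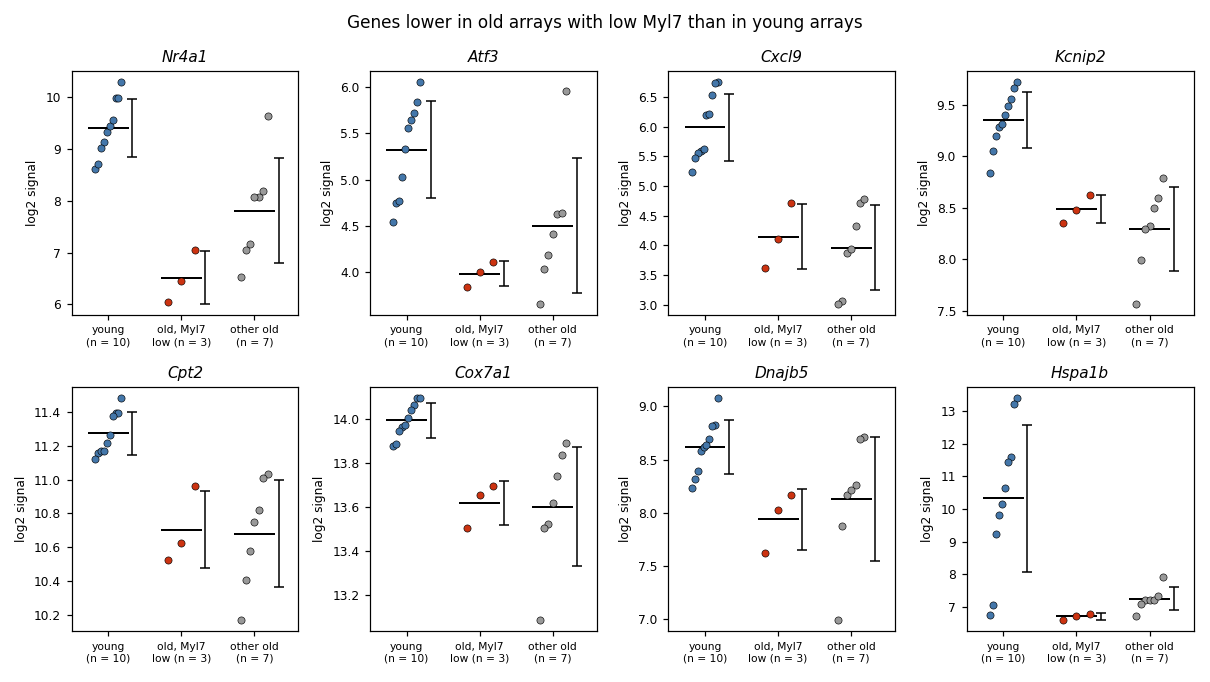
Log2 signal (vertical axes) of 8 genes with lower estimates in the 3 old arrays with low Myl7 than in the 10 young ones. Points are arrays, lines means and bars SDs; Nr4a1, Atf3, Cxcl9, Kcnip2, Cpt2, Cox7a1 and Dnajb5 passed the test, while Hspa1b did not, and its young arrays run from 6.75 to 13.40.

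Genes for mitochondrial proteins, the subject of the series, were mostly below the young mean in the 3 arrays, by small amounts. Of 33 tested complex I genes, which encode the entry point of electrons from NADH, 0 rose and 0 fell, 29 estimates were below 0 and the median was −0.11. The same list had a median of −0.24 in the other old arrays. Ndufs8 was at 14.04, 14.03 and 14.14 against 14.08 to 14.62 in young (−0.32, adjusted p = 0.21), and Ndufb2 at 12.09, 12.28 and 12.08 against 12.18 to 12.75 (−0.34, adjusted p = 0.187). Ndufs4 was at 11.47, 11.63 and 11.31 against 11.33 to 11.81 (−0.11, adjusted p = 0.694), inside or next to the young range, while it was at 10.80 to 11.32 in the other old arrays. The differences between the 2 groups of old arrays were not called for any complex I gene.

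Complexes II to V had 1 called gene of 40, or 2.50%, near the 2.93% of all genes. It was Cox7a1, the muscle form of a cytochrome c oxidase subunit. Cox7a1 was at 13.50, 13.66 and 13.69 against 13.88 to 14.09 in young (−0.38 ± 0.09, SE; adjusted p = 0.0423), below every young array. The difference was −0.34 within each of the 2 sets, but the call ended when any of the 3 old arrays was left out, and after quantile normalization or median centring. Uqcrc1, a core protein of complex III, was at −0.39 (adjusted p = 0.165), and Atp5j, a coupling subunit of ATP synthase, at −0.27 (adjusted p = 0.26). Cox6a1, the form of cytochrome c oxidase subunit 6a made outside muscle, was at 0.33 (adjusted p = 0.186). The median of the list was −0.05.

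Fatty acid oxidation, from which the heart draws most of its ATP, had 2 called genes of 27, both lower (7.41%, beside 0.679% of all genes). Cpt2, the inner membrane carnitine palmitoyltransferase, was at 10.52, 10.62 and 10.96 against 11.12 to 11.48 in young (−0.57 ± 0.12, SE; adjusted p = 0.0167), or 67.2% of the young level. The other old arrays, at 10.17 to 11.03, covered the same range, and no old array of either kind reached the young ones. Malonyl-CoA decarboxylase (Mlycd), which removes an inhibitor of this pathway, was at 6.71, 7.04 and 7.05 against 7.21 to 7.90 (−0.63 ± 0.16, SE; adjusted p = 0.0492). The call of Mlycd ended in 19 of 25 other settings, that of Cpt2 in 5, and both ended without old replicate 1 and without replicate 2. Eci1, an enoyl-CoA isomerase, was at 11.75, 11.74 and 11.76 against 11.93 to 12.18 (−0.28, adjusted p = 0.124), below every young array but without a call. In the other old arrays Eci1 was at 10.78 to 11.46, below the 3 arrays as well. The list had 24 estimates below 0 and a median of −0.14, against −0.35 in the other old arrays.

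The remaining mitochondrial lists had no called gene. Of 74 mitochondrial ribosome genes 0 rose and 0 fell with a median of −0.13 (−0.32 in the other old arrays), led by Mrpl9 at −0.54 (adjusted p = 0.102). For 26 genes of the tricarboxylic acid cycle and its pyruvate entry the median was −0.11, with Pdk4, a kinase that blocks pyruvate entry, at −1.12 (adjusted p = 0.0817) and Fh1, fumarase, at −0.24 (adjusted p = 0.213). For 19 genes of branched-chain amino acid and ketone use it was −0.24 (−0.45 in the other old arrays), with Ivd at −0.55 (adjusted p = 0.0519). The 29 genes of protein import had a median of −0.17, and the 23 regulators of mitochondrial biogenesis −0.07. The coactivator gene Ppargc1a was at 9.19, 8.98 and 9.33, inside the young range of 8.47 to 9.72 (0.08, adjusted p = 0.898). No mitochondrial list had more than 4 falls in any other setting. Within the set of old replicate 7 the medians of the ribosome and import lists were 0.03 and 0.07, against −0.15 and −0.07 in the set of replicates 1 and 2.

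The 2 groups of old arrays were then set against each other in a fit over all 20 arrays. The choice of arrays by Myl7 made this contrast, so its counts and values are a description. In it 102 of 9275 genes (1.10%) passed the limma threshold, 81 lower (0.873%) and 21 higher (0.226%) in the 3 arrays than in the other 7, and 96 of them were outside the atrial list. Of the 1732 genes of the 20-array comparison, 73 were among the 102, and 65 of these were not called in the 3 arrays against young. Without old replicate 1 the count was 5, without replicate 2 it was 40, without replicate 7 it was 64, and with the array set as a block it was 22.

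Outside the atrial list the genes furthest below the other old arrays included some at the young level. Gpx3, a secreted glutathione peroxidase, was at 10.09, 10.29 and 10.43 in the 3 arrays, 9.02 to 10.14 in young and 11.39 to 13.29 in the other old arrays. Its difference from young was 0.62 (adjusted p = 0.12) in the 3 arrays and 3.07 in the other 7, and replicates 2 and 7 lay above every young array. Tbc1d1, a regulator of glucose transporter traffic, was at 3.77, 4.47 and 4.51, inside the young range of 3.23 to 4.84, and at 4.46 to 7.13 in the other old arrays. Gnao1, a G protein subunit, was at 4.78, 4.66 and 4.66 against 4.19 to 5.06 in young and 4.99 to 7.56 in the others. Against young, Tbc1d1 and Gnao1 were at 0.07 and −0.04 in the 3 arrays and at 2.28 and 1.80 in the other 7. Lgals3 was different, since it was at 6.73 to 7.85 in the 3 arrays, 6.89 to 11.05 in the others and at most 5.64 in young, a rise of 2.85 and of 5.34. Gpm6a, a membrane glycoprotein of neurons and mesothelium (1.86 and 3.53), Col14a1 (1.01 and 2.24) and Fstl1 (0.68 and 1.47) likewise rose in the 3 arrays and stood higher in the others.

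In the other direction, Tnfaip8 and Fbp2 were lower in the other 7 old arrays and at the young level in the 3. Tnfaip8, an apoptosis regulator, was at 10.24, 10.01 and 10.07 against 10.00 to 10.39 in young and 8.90 to 9.81 in the other old arrays. Fbp2, the muscle fructose bisphosphatase, was at 8.71, 8.70 and 8.88 against 8.16 to 9.19 in young and 7.43 to 8.21 in the others. The 3 arrays lay inside the young range for both and above the other old arrays. The autophagy gene Rb1cc1 (0.50 in the 3 arrays and −0.29 in the other 7), Jmy (0.18 and −0.53), Fastkd2, which acts on mitochondrial RNA (0.10 and −0.64), Asb14 (−0.16 and −0.93), Atxn7l1 (0.15 and −0.71) and Cep126 (0.16 and −0.73) also stood above the other 7 arrays in their mean. Of the 3 arrays, 2 were above the highest young value of Rb1cc1, 8.86, and Eci1, given above, was below every young array in all 3. None of these genes was called against young in the 3 arrays.

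**Figure D5:**
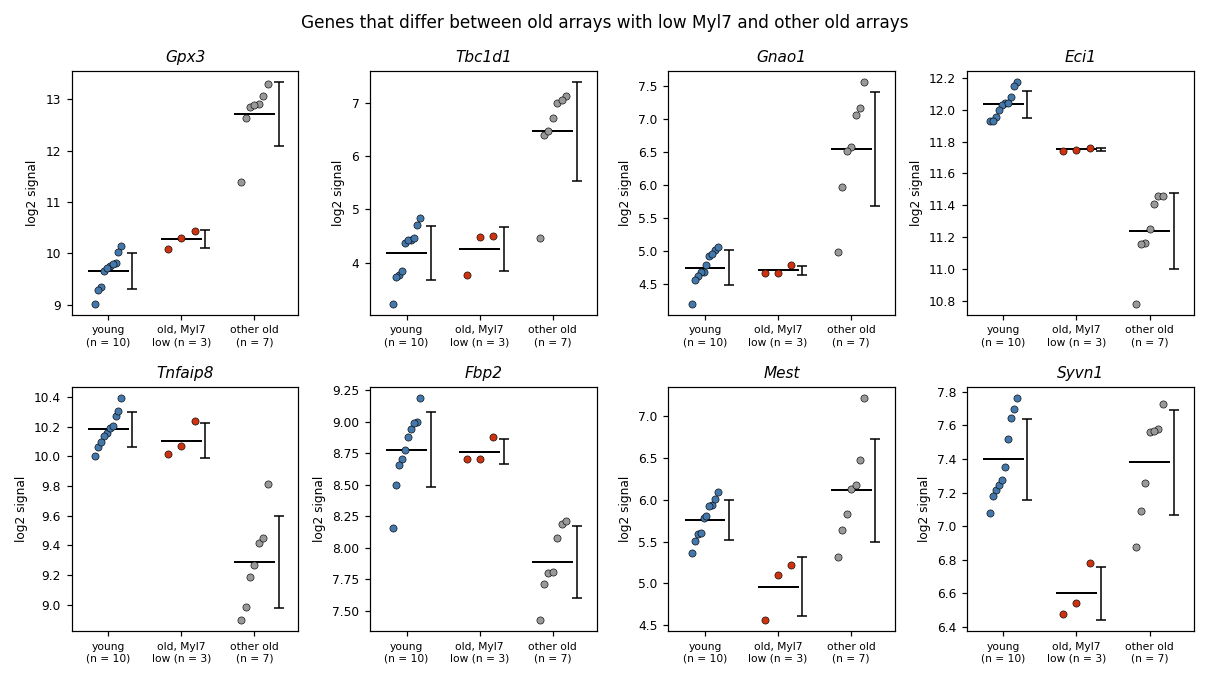
Log2 signal (vertical axes) of 8 genes that passed the threshold between the 2 groups of old arrays. Points are arrays, lines means and bars SDs. In the 3 arrays with low Myl7, Tbc1d1 and Gnao1 are inside the young range and Gpx3 is at or just above its top. These genes are higher in the mean of the other old arrays. Eci1, Tnfaip8 and Fbp2 are lower in the other old arrays, and Mest and Syvn1 are lowest in the 3 arrays.

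There were 20 genes called in the 3 arrays and not over all 10 old arrays. The imprinted gene Mest was at 4.56, 5.10 and 5.22 against 5.37 to 6.09 in young and 5.32 to 7.21 in the other old arrays (−0.80 ± 0.17, SE; adjusted p = 0.0184). Syvn1, a ubiquitin ligase of the endoplasmic reticulum, was at 6.54, 6.48 and 6.78 against 7.08 to 7.76 and 6.87 to 7.73 (−0.80 ± 0.15, SE; adjusted p = 0.0103). Both were below all other arrays of the series, young and old. Dlgap1, a scaffold protein gene, was at 4.23, 4.60 and 4.59 against 3.97 to 4.19 in young and 3.79 to 4.13 in the other old arrays (0.43, adjusted p = 0.0396), above all of them. These 3 also passed the threshold between the 2 groups of old arrays. The other 17 did not, so a difference from the other old arrays was not shown for them. They were the rises of Ttll7 (1.27), Amot (1.07), Zfp52 (0.74), Plscr4 (0.56), Tdp2 (0.52) and Pla2g4e (0.51) and the falls of Cd83 (−0.89), Dok4 (−0.88), Spsb4 (−0.71), Tmem131l (−0.70), Klc4 (−0.69), Camk1 (−0.66), Ndrg4 (−0.64), Bcl6b (−0.56), Syngr2 (−0.54), Mta1 (−0.47) and Fbxo7 (−0.46). The calls of Mest and Syvn1 ended without old replicate 1 and without replicate 2, and that of Dlgap1 without replicate 2 and without replicate 7. The calls of the other 17 all ended without old replicate 1 and without replicate 2.

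Among the genes tested, which leave out Myl7 and Sln, 11 of the 12 that rose most over all old arrays were called in the 3 arrays. The other, Myl4, belongs to the atrial set, and its values (2.09 in the 3 arrays and 7.37 over all old arrays) are a description. For the rest the difference from young is given first for the 3 arrays and then for all old arrays. Car3 (4.20 and 5.28), Clec1b (3.93 and 4.16), Cxcl13 (3.88 and 4.29), Ccl8 (3.67 and 3.62), Ppbp (3.56 and 3.53), Gp1bb (3.23 and 3.23) and Serpina3n (2.93 and 3.46) were among them. Lgals3 (2.85 and 4.59), Vsig4 (2.85 and 3.84), Gpm6a (1.86 and 3.03) and Fmod (2.73 and 3.44) were the other 4. Of the 12 largest falls, Nr4a1, Cxcl9 and Nrn1 were called in the 3 arrays. The other 9 were not, namely Hspa1b, Hspa1a, Dnajb1, Hsph1, Dnaja1, Nr4a2, Bex1 (−1.26, adjusted p = 0.116), Cmtm8 (−0.77, adjusted p = 0.288) and Ddit4 (−0.83, adjusted p = 0.334). The comparisons share their young arrays, so their values are set side by side and not counted as 2 readings.

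Old replicate 1, the array with Myl7 at the young level, was also compared alone with the 10 young arrays, a comparison added after the values were seen. It called 126 genes (97 higher, 29 lower), with the old array assumed to vary as the young ones do. Of the genes described above, Clec1b, Ppbp, Ccl8, Kcnk1, Gp1bb, Myh7, Serpina3n, Lgals3, Vsig4 and Nr4a1 kept their calls there, while Postn, Fmod, Comp, Car3, Cxcl9, Cpt2, Cox7a1 and Kcnip2 did not. The estimates of Car3 (4.17), Cxcl9 (−1.88), Cpt2 (−0.75), Cox7a1 (−0.49) and Kcnip2 (−0.997) were about as large as with the 3 arrays or larger. Those of Postn (0.97), Fmod (0.56) and Comp (0.65) were smaller.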

How the data were processed

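RNA from the ventricle of 20 mice was hybridised to 20 arrays, 1 per mouse, per the labels' protocols. Groups came from the sample titles. The deposited values are GCRMA signals read here as log2 (0.98 to 16.0, array medians 3.07 to 3.20), per the submitters' processing notes and the values themselves. GCRMA corrects background, normalizes between arrays and summarises probe sets, so undetected genes sit at a common floor. Its version is not given in the sources used here. Of 45101 probe sets, 34945 named 1 gene and were used, 932 named several, 9160 were unnamed here and 64 were controls. Those above 4 in at least 10 of the 20 arrays passed, and the brightest passing probe set stood for its gene (9275 genes). Genes with a young median under 4 passed mostly through old arrays, which favours rises in the counts. Among them were Gp1bb (3.56), Ccl8 (2.98), Car3 (3.16), Fmod (3.59) and Gpm6a (3.47), whose calls held with no filter.

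Groups were compared with limma 3.58.1 in R 4.3.3 (lmFit and eBayes, no covariate), Benjamini-Hochberg adjusted over all genes, at a threshold of 0.05. Each adjusted p is from the fit of 3 old and 10 young arrays, and differences are old minus young unless stated. No test is printed for the atrial genes, since Myl7 chose the arrays. They stayed in the fit and its counts, and Nppa, Myh7b, Clu and Tbx18 also stand in other lists. The arrays compared, the genes and the lists (45, with 1064 of 1181 entries matched) were chosen with earlier results of these data known. Named genes are the 12 largest rises and falls of both comparisons with young, up to 8 either way between the old groups, up to 4 of smallest p in each list described, and a set of fixed genes. Other called list members and the genes called in the 3 arrays but not over all old arrays were added after their values were seen. Array sets came from average linkage of residual correlations, divided into 5. The fit was tested on simulated data, with noise independent between arrays and no array sets. There it recovered 26.9% of changes of 0.5, 70.1% of changes of 1 and 98.5% of changes of 2, with 7 false calls. Small changes were thus often missed. The number of arrays limits the precision.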

Additional observations from a re-analysis of the deposited data

Results flagged for a closer look

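Among the young arrays, 1 array stood apart from the other 9 for 14 of the genes described, by Dixon's ratio of its gap to the group's range (above 0.466 for 10 arrays). Chance gives this in about 1 group in 20, so among the many genes described several such flags would arise by chance. The number of flags is therefore no result. The highest array stood apart for Car3 (ratio 0.715, young replicate 20 at 6.97), Myl4 (0.669, replicate 14 at 5.16), Ccr2 (0.541, replicate 18), Fbxo7 (0.513, replicate 14), Col5a3 (0.511, replicate 13), Ccl8 (0.471, replicate 14) and Fmod (0.469, replicate 11). The lowest stood apart for Tubb1 (0.525, replicate 13), Aqp1 (0.524, replicate 11), Rb1cc1 (0.504, replicate 13), Spsb4 (0.504, replicate 18), Lcn2 (0.498, replicate 19), Bex1 (0.478, replicate 18) and Ighm (0.466, replicate 19). For Car3 this young array is the one that overlaps with the old ones, and for Aqp1 it lies below old replicate 7.

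The change with age differed between the 3 old arrays with low Myl7 and the other 7 for 19 of the genes described outside the atrial list, as log2 difference between these old groups. The 3 arrays were lower for Lgals3 (−2.49), Gpx3 (−2.45), Tbc1d1 (−2.21), Gnao1 (−1.84), Gpm6a (−1.67), Col14a1 (−1.23), Mest (−1.15), Fstl1 (−0.79) and Syvn1 (−0.78). They were higher for Cep126 (0.89), Fbp2 (0.87), Atxn7l1 (0.86), Tnfaip8 (0.82), Rb1cc1 (0.78), Asb14 (0.77), Fastkd2 (0.75), Jmy (0.71), Eci1 (0.51) and Dlgap1 (0.50). The groups were formed on Myl7, so these differences are a description. Most of these genes were named because they passed this contrast, so their number is no result. Over all genes tested, 102 of 9275 (1.10%) passed, and 5 passed without old replicate 1.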

How the results depend on the processing

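The 272 calls against young became 142 in a fit that pools the spread of all 20 arrays, 451 with the array set as a block, 45 with only the young arrays of the same sets and 126 with old replicate 1 as the one old array, the last chosen after seeing the data. They ran from 76 to 313 over the fits without 1 array. The 102 genes that separated the old groups became 22 with the set as a block and 5 to 64 without 1 of the 3 old arrays. Quantile normalization gave 243 and 77, and median centring 260 and 81. The remaining settings (no filter, a filter at 6 or on 3 of the 13 arrays, mean of probe sets, an intensity trend, 4 old arrays) gave 186 to 372 calls against young. Of the 103 called genes described, 0 changed direction in the 25 settings, 85 lost their call in the matched sets, 64 without old replicate 1, 69 without replicate 2 and 24 without replicate 7. The cause was not tested. With 3 old arrays from 2 sets, differences between sets enter the comparison. Old and young arrays share no replicate number, so they were matched only by array set and not in pairs. Genes near the floor limit fold sizes.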
